A study of Mus musculus with 16 samples.

Results

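The cytoplasmic ribosomal protein genes were examined in RNA-seq of 16 primary mouse rhabdoid tumors. Members were the gene symbols that begin with Rpl or Rps, are followed by a number and at most 1 of the letters a, l and x (or by p0, p1 or p2), and had a mean of at least 50 counts per tumor. Of the 24982 genes in the count table, 81 symbols matched and 75 reached the minimum, 45 named for the large subunit and 30 for the small subunit. Just inside the minimum were Rpl32l with a mean of 50.6 counts and Rpl34 with 50.8, and just outside it were Rps27 with 29.1 and Rpl30 with 18.2.

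The ribosome is built from a small subunit that reads the mRNA and a large subunit that joins amino acids, and each subunit holds ribosomal RNA and a fixed set of proteins, nearly all encoded by a single active gene. The mRNAs of these proteins start with a run of pyrimidines, the TOP motif, through which the mTOR pathway controls their translation together. Myc proteins are known to raise ribosome production by acting on RNA polymerase I, on ribosomal protein genes and on nucleolar assembly factors.

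All tumors came from Smarcb1flox/flox;R26-CreERT2 mice on a mixed 129/SV and C57BL/6 background, 1 tumor per mouse. Tamoxifen given to the embryo activates a Cre recombinase that is expressed in all tissues, so the recombined cells were not restricted to 1 lineage, and no tumor without this genotype was included. By their labels, 5 tumors were intra-CNS (tamoxifen at E6, mice aged 30 to 180 days), 6 were intracranial extra-CNS (E6, E7 or E8, aged 52 to 170 days) and 5 were extracranial (E6 or E8, aged 80 to 210 days). The study assigns the intra-CNS tumors to its Shh subgroup and the 11 extra-CNS tumors to its Myc subgroup. Frozen tumors were macrodissected, so each library is a mixture of tumor and other cells, in which fewer cells of a type and less RNA per cell cannot be told apart.

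Total counts ranged from 17889968 to 110177889 per tumor. Smarcb1, the deleted gene, stood between 3.99 and 26.1 TPM (a count divided by transcript length and scaled to the same sum in every tumor) in 14 tumors, at 58.1 TPM in intra-CNS tumor 29048 and at 43.7 TPM in intracranial extra-CNS tumor R26P115. In 29048 the summed level of 7 oligodendrocyte markers was 6725 TPM, against 42.7 to 175 TPM in the other tumors. In R26P115 Myc was at 8.73 TPM, against 87.0 to 225 TPM in the other extra-CNS tumors, and the sum of 10 proliferation genes was 170 TPM, the lowest of the 16 tumors. The shares and the counts of called members that follow are also given without these tumors, while marker and related gene lists are given with all tumors of a comparison.

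Start windows are shown for 4 members on which the results turn. They span 20 bases before and 10 bases after a start listed by RefSeq (GRCm38.p6), on the gene's strand, and capitals mark the longest run of C and T within reach of that start. Rps27l was the member that set the intra-CNS tumors apart, Rps24 lay at the opposite end of the 75, and Rpl12 and Rps18 had steep slopes on the Myc level.
Rps27l: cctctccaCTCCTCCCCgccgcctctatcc
Rps24: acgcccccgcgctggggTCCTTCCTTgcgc
Rpl12: gcgtgggcggagcaggatccgTCTTTTCgg
Rps18: acttatacgtcacttccgCTCTCTCTTCCa
The Rps27l window lies at chr9:66946066-66946095 (+), that of Rps24 at chr14:24490658-24490687 (+), that of Rpl12 at chr2:32961692-32961721 (+) and that of Rps18 at chr17:33955656-33955685 (-). The runs are 9, 9, 7 and 11 bases long. Those of Rps24 and Rps18 span the listed start, that of Rps27l ends before it, and that of Rpl12 begins just after it and is shorter than the minimum of 8 used in the counts that follow. RefSeq starts can lie away from the GENCODE gene end, and the start used in these tumors was not measured.

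Promoter windows of 300 bases (250 before and 50 after the listed start) were found for 55 of the 75 members. A run of at least 8 pyrimidines that reached within 10 bases of the start was held by 28 of the 55 (50.9%), against 15.8% of the 27025 genes with a window. The E-box CACGTG, the sequence that Myc with its partner Max is known to bind, was held by 6 of the 55 (10.9%), against 8.09% of all genes. CCGGAAG, read on either strand and the core of sites for ETS family factors, was held by 22 of the 55 (40%), against 9.93% of all genes, and by 37.7% of the 69 mitochondrial ribosomal protein genes with a window. TATAAA between 40 and 16 bases before the start was held by 0 of the 55 and by 2.41% of all genes. These are counts of letters in fixed windows and do not show binding.

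The 75 genes made up between 1.32% and 7.30% of all counts and between 3.98% and 20.1% of TPM. In the intra-CNS tumors their share of TPM was 5.95% in 29048, 9.59% in 38594A, 12.9% in R26P98, 14.1% in R26P87 and 14.7% in 29050A. In the intracranial extra-CNS tumors it ranged from 3.98% in R26P115 to 16.3%, with a median of 13.1%. In the extracranial tumors it was 10.6% in R26P123, 11.05% in 43825B, 12.6% in 43998A, 13.2% in 43987A and 20.1% in 43990A. The groups overlapped across most of their range, and the lowest and the highest tumor were both extra-CNS. Mean shares of TPM were 11.5% ± 3.67 (SD, n = 5) in intra-CNS, 12.1% ± 4.62 (SD, n = 6) in intracranial extra-CNS and 13.5% ± 3.82 (SD, n = 5) in extracranial tumors.

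As a share of counts, the means were 3.46% ± 1.19 (SD, n = 5) in intra-CNS and 4.43% ± 1.56 (SD, n = 11) in extra-CNS tumors. The ratio of these means was 0.781 on counts and 0.898 on TPM, and both differences were smaller than the spread between tumors of a group. On the log2 scale the ratio was -0.36 on counts and -0.16 on TPM, and without 29048 and R26P115 it was -0.28 and -0.09. Counting error is small beside that spread, since the exact 95% Clopper-Pearson interval of the share ran from 1.31% to 1.32% in R26P115 and from 7.29% to 7.31% in 43990A. The tumors carry either numbered names or names that begin with R26P. Among numbered tumors the share of TPM was lower in intra-CNS tumors (mean 10.1%, n = 3) than in extra-CNS tumors (14.2%, n = 8), and among R26P tumors it was higher (13.5%, n = 2, against 9.07%, n = 3), a group that holds R26P115.

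**Figure D1:**
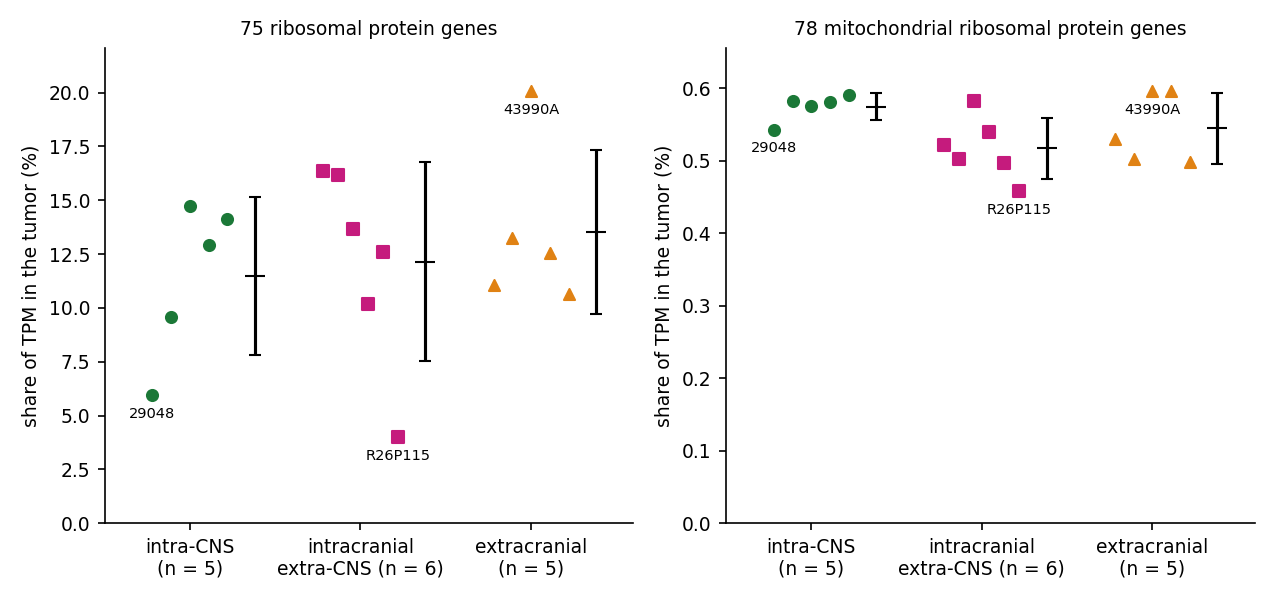
Share of all TPM (%) held by the 75 ribosomal protein genes (left) and by 78 mitochondrial ribosomal protein genes (right) in each tumor, with the mean and SD of each group beside the points. The cytoplasmic share spread from 3.98% to 20.1% with overlapping groups, while the mitochondrial share stayed between 0.458% and 0.596%.

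The spread of the cytoplasmic genes was not shared by their mitochondrial counterparts. The 78 mitochondrial ribosomal protein genes, which encode the ribosome of the mitochondrion, held between 0.458% and 0.596% of TPM, a 1.30-fold range against 5.04-fold for the 75 cytoplasmic genes. The balance of subunits was also narrow, as large subunit genes held between 58.7% and 62.7% of the members' counts in every tumor.

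Individual members followed each other closely. Over the 16 tumors, the log2(TPM + 1) of 63 of the 75 members correlated with the log2 summed TPM of the other members at a Pearson r over 0.9, with a median r of 0.965 (a description, since all values of a tumor share 1 library and its scaling). R26P115 was the lowest tumor for 70 of the 75 members and 43990A the highest for 64. R26P115 and 29048 were the 2 lowest tumors for 70 members. The highest tumor stood over the lowest by a median of 5.21-fold in TPM. As a share of the members' counts, the most even members were Rpl18 (SD 0.08 on the log2 scale), Rps13 (0.09) and Rpl23 (0.09), of the large, the small and the large subunit.

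The least even were Rps4l (SD 2.44), Rps27l (0.65), Rpl32l (0.58) and Rpl41 (0.35). Rps4l and Rpl32l are annotated as processed pseudogenes in GENCODE release 21 (mm10), so 73 of the 75 members are annotated as protein-coding. Rpl32l (chr10:20208490-20208888) stood at a mean of 4.86 TPM and Rpl34, which encodes a core protein of the large subunit, at 4.38 TPM. The other 71 members besides these and the paralogs Rps4l and Rps27l had mean levels of 237 to 4233 TPM, led by the stalk gene Rplp1. The lengths behind the deposited TPM were 6.94 times the member median for Rps15a and 4.66 times for Rps20, and these 2 genes had mean levels of 237 and 350.5 TPM from mean counts of 20258 and 19924, so that their TPM is not read against that of other members.

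The other 6 symbols matched but stayed under the minimum, and 3 of them encode core ribosomal proteins. Rpl26 had 1 count in all 16 tumors together, Rpl30 stood between 1.02 and 6.39 TPM and Rps27 between 0.729 and 5.97 TPM, and Rpl34 among the members had a like low level. Of the 100-base stretches of their GENCODE mRNA, 98.4% were also found in another gene's transcript for Rps27, 36.8% for Rpl26, 32.5% for Rpl30 and 31.0% for Rpl34. The same share was 41.5% (median) over the 72 members at or above 100 TPM and reached 91.6% for Rpl10. Rpl26, Rpl30 and Rpl34 thus lay within the range of the abundant members in this share, and Rps27 lay above it. The annotation used for counting is not given in the sources used here, and the cause of the low counts was not tested. The remaining 3, Rpl10l, Rpl39l and Rpl3l, are paralogs and had mean counts of 0, 3.31 and 7.25.

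The comparison of intra-CNS with extra-CNS tumors asks whether ribosomal protein genes differ between the subgroups that the study calls Shh and Myc. On counts scaled by TMM, all 75 members had a lower estimate in intra-CNS tumors, with a median log2 fold change of -0.66, against -0.15 over all 21854 genes tested. In edgeR's quasi-likelihood test, 17 of the 75 passed an adjusted p under 0.05 (Benjamini-Hochberg over all genes), all lower. This was 22.7% of the members, against 17.0% of all genes called lower, and the gap between these shares changed with the tumors included. Without R26P115, 50 members (66.7%) were called lower against 19.1% of all genes. Without 29048 and R26P115, 33 members (44%) were called against 17.1%. The called genes were 12 of the 45 large subunit and 5 of the 30 small subunit members.

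On TPM the difference was smaller and most calls were lost. In limma on log2(TPM + 1) the median of the 75 was -0.10, with 24 members above 0, and 1 member was called. The median over all genes moved from -0.15 to 0.20 between these scales, so the members lay below it by 0.51 on TMM-scaled counts and by 0.29 on TPM. The number of calls also turned on single tumors. Without 29048 it was 2 (2.67% of members, against 14.6% of all genes called lower), and without 38594A it was 3 (4% against 13.0%). It was 9 with the name scheme as a covariate (12% against 16.0%), 1 in the tumors induced at E6, 5 against 2 (1.33% against 11.3%), and 2 among intracranial tumors, 5 against 6 (2.67% against 13.9%). The 17 genes were among the 50 called without R26P115 and among the 33 called without 29048 and R26P115.

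**Figure D2:**
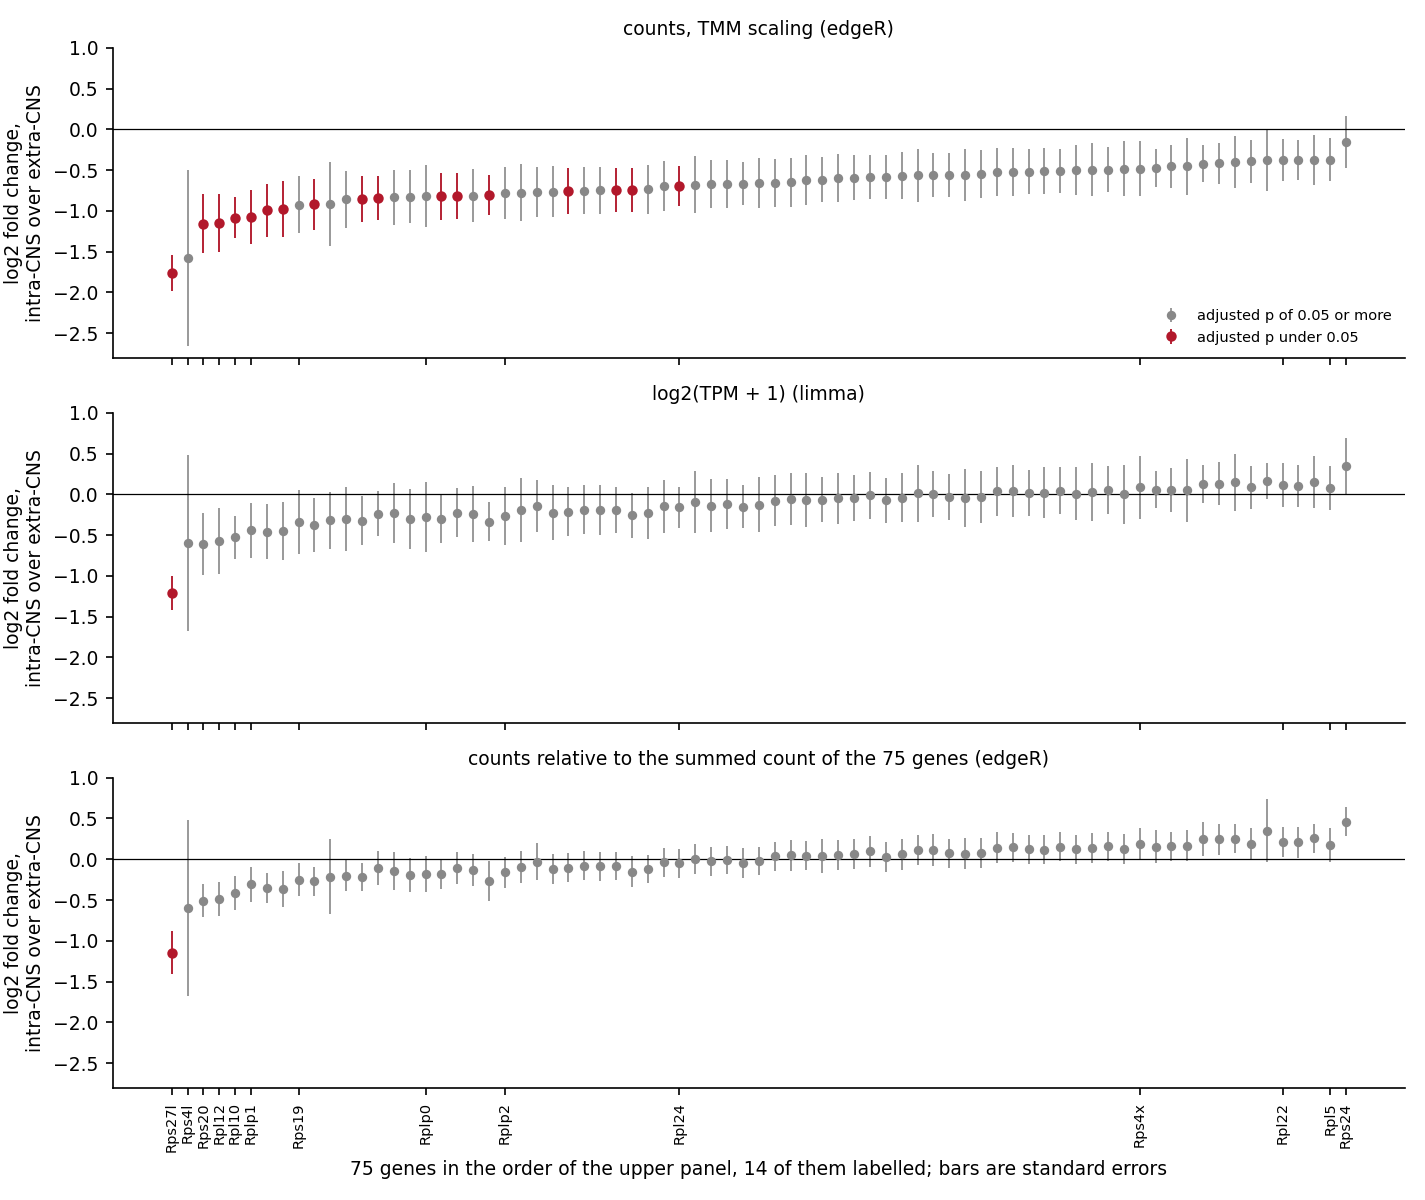
Log2 fold change (intra-CNS over extra-CNS) and standard error of the 75 members in edgeR on TMM-scaled counts (top), in limma on log2(TPM + 1) (middle) and in edgeR relative to the summed count of the 75 genes (bottom), in the same gene order, with some genes labelled and calls at an adjusted p under 0.05 in red. All estimates lie below 0 at the top, where 17 genes are called, and Rps27l alone is called in the middle and the bottom panel.

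Markers of other cells differed between the groups, with sums that overlapped. All 9 macrophage and microglia markers were called lower in intra-CNS tumors, with summed levels of 786 to 1267 TPM against 892 to 9769 TPM in extra-CNS tumors, and no marker was at 0 in any tumor. Of 10 neuron markers 5 were called higher (sums of 157 to 4476 against 36.3 to 1405 TPM, with Rbfox3, Dcx, Elavl3 and Slc17a6 at 0 in some tumors), as were 5 of 7 oligodendrocyte markers (47.5 to 6725 against 42.7 to 138 TPM, Mog and Mobp at 0 in some tumors). The highest neuron and oligodendrocyte sums were both those of 29048. In the other intra-CNS tumors these sums were 157 to 2518 TPM and 47.5 to 175 TPM. Fewer calls, all lower, were made among T and NK cell (3 of 6), skeletal muscle (4 of 8) and endothelial markers (1 of 5), and 0 of 2 erythroid markers were called. Their part in the ribosomal protein result was not tested.

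Rps27l departed from the other members. This paralog of Rps27, known as a target of p53, lies at chr9:66946086-66949516 (mm10) and is annotated as protein-coding. Its level was 102 TPM in 29048, 165 TPM in 38594A, 181 TPM in 29050A, 183 TPM in R26P98 and 163 TPM in R26P87. In the intracranial extra-CNS tumors it ranged from 191 TPM in R26P115 to 537 TPM with a median of 433 TPM, and in the extracranial tumors it was 284, 306, 317, 336 and 450.2 TPM. Every intra-CNS tumor lay below every extra-CNS tumor, which held for no other member and, in this direction, for 2.14% of the 24951 genes in the TPM table.

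The log2 fold change of Rps27l was -1.76 ± 0.22 (SE, edgeR adjusted p = 3.57e-05). Relative to the summed count of the 75 members it was -1.14 ± 0.26 (SE, edgeR adjusted p = 0.00442), and on log2(TPM + 1) it was -1.21 ± 0.21 (SE, limma adjusted p = 3.19e-04). It stayed called in all alternatives of these 2 edgeR comparisons. None of the 100-base stretches of its mRNA was found in another gene's transcript. Its partner Rps27 is among the genes listed near 0, so that the pair cannot be compared. The level in R26P115 was close to the intra-CNS range, and the share of Rps27l among the members' counts was highest in that tumor.

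Relative to the summed count of the members, 1 of 75 was called, beside 27.4% of all 21854 genes (20.8% higher and 6.57% lower). This scaling itself places members that vary together near 0, with a median log2 fold change of 0.004 against 0.44 over all genes. The low number of members called is thus in part set by the scaling, and the fit only shows which members depart from the others. Rps20, a protein of the head of the small subunit, had a relative log2 fold change of -0.51 ± 0.20 (SE, edgeR adjusted p = 0.0705) and Rpl12, which sits at the base of the stalk, -0.49 ± 0.21 (SE, edgeR adjusted p = 0.0934). Rps24, of the small subunit, had the highest value, 0.46 ± 0.18 (SE, edgeR adjusted p = 0.0686). Without R26P115 all 3 were called along with Rps27l. In that fit 8555 of all 21795 genes were called higher and 1712 lower. The levels of Rps24 were 647, 1086, 1488, 1885 and 2106 TPM in intra-CNS tumors and 324 to 1927 TPM (median 1096) in extra-CNS tumors, and those of Rps20 were 109.9, 200.3, 279.6, 329.6 and 347 TPM against 99.1 to 640.5 TPM (median 400.3). The groups overlap for both genes on TPM.

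**Figure D3:**
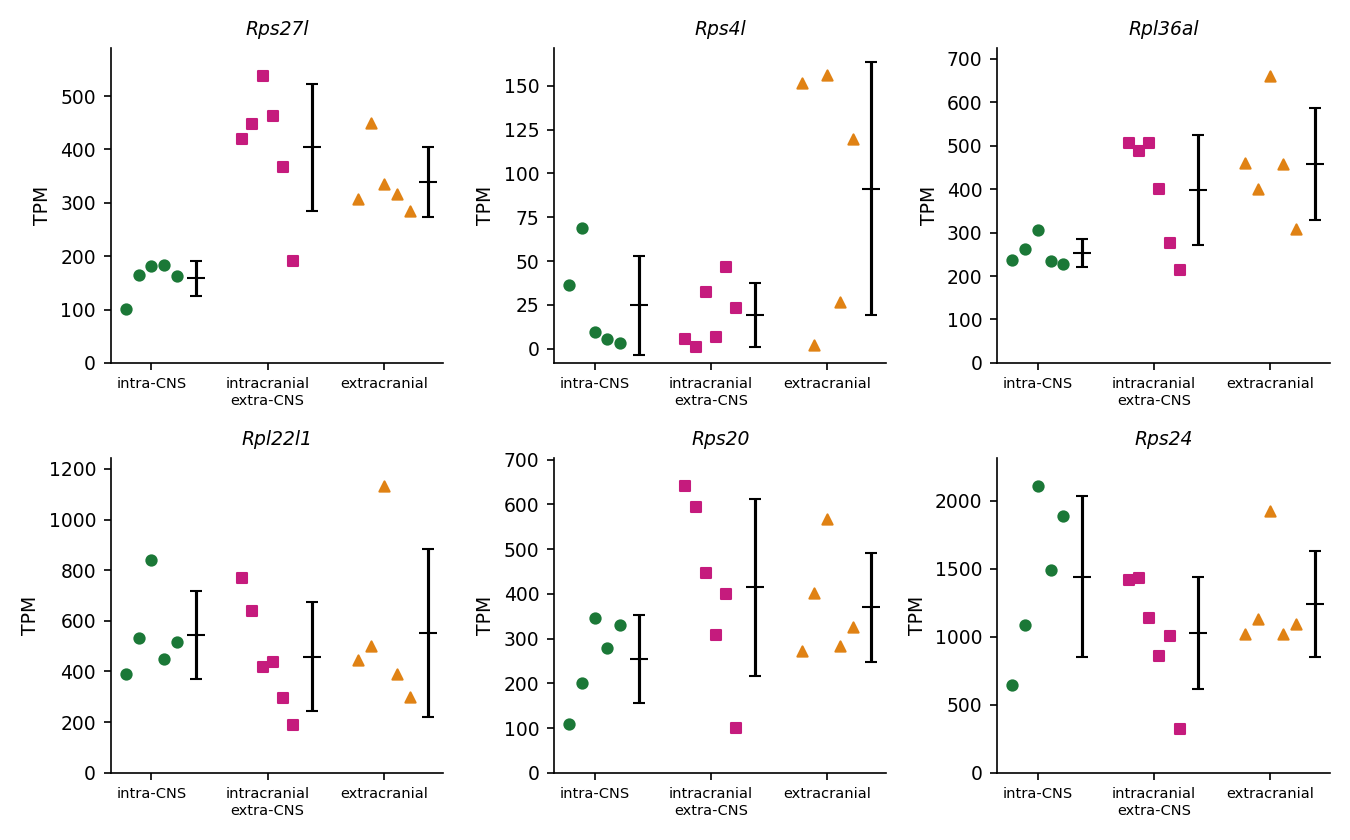
TPM of Rps27l, Rps4l, Rpl36al, Rpl22l1, Rps20 and Rps24 in each tumor of the 3 groups (5, 6 and 5 tumors), with the mean and SD of each group beside the points and a separate scale in each panel. The intra-CNS tumors lie below all others for Rps27l (102 to 183 against 191 to 537 TPM), and Rps4l ranges from 0.85 to 156 TPM with overlap between the groups.

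Among the called members, the lowest log2 fold changes after Rps27l were -1.16 ± 0.36 for Rps20 (SE, edgeR adjusted p = 0.0217), -1.15 ± 0.36 for Rpl12 (adjusted p = 0.0208), -1.08 ± 0.26 for Rpl10 (adjusted p = 0.00412) and -1.07 ± 0.33 for Rplp1 (adjusted p = 0.0197). Rpl10 joins the large subunit late in its assembly. Its level was 1107 to 2279.6 TPM in the 5 intra-CNS tumors and 873 to 3449 TPM (median 2767) in the extra-CNS tumors, of which R26P115 was the lowest and the other 10 lay at or above 2089 TPM. Among the called members closest to 0 were Rpl24 at -0.70, Rps16 at -0.74, Rpl19 at -0.75 and Rpl41 at -0.81, all of them components of the mature subunits. None of these calls except that of Rps27l was made on TPM.

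The stalk of the large subunit, through which translation factors dock, consists of Rplp0, Rplp1 and Rplp2. Rplp1 was called, and Rplp0 (-0.82 ± 0.38, SE) and Rplp2 (-0.78 ± 0.32, SE) had edgeR adjusted p of 0.108 and 0.0684. Rpl5 (-0.37) and Rpl11 (-0.50), which carry the 5S ribosomal RNA and can bind Mdm2, were not called (edgeR adjusted p = 0.286 and 0.175). Rps19, the gene most often mutated in Diamond-Blackfan anemia, had -0.93 ± 0.35 (SE, edgeR adjusted p = 0.0522). Of 18 genes tied to that anemia 2 were called, with a median of -0.59, beside 17.0% of all genes called lower. Of the genes outside the symbol rule, Fau was called at -0.85 (edgeR adjusted p = 0.0210), while Rpsa (-0.87, adjusted p = 0.0709) was not. Fau encodes a ribosomal protein fused to a ubiquitin-like protein.

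The other paralogs gave 1 call. Rpl36al, the paralog of Rpl36a, was lower in intra-CNS tumors by -1.27 ± 0.22 (SE, edgeR adjusted p = 3.99e-04). Its level was 227, 234, 238, 263 and 306 TPM in intra-CNS tumors and 214 to 659.9 TPM (median 457) in extra-CNS tumors, where R26P170 (277 TPM) fell within the intra-CNS range and R26P115 (214 TPM) below it. Its partner Rpl36a was also called, at -0.92 ± 0.32 (SE, edgeR adjusted p = 0.0338). Of the 100-base stretches of their mRNAs, 59.0% for Rpl36al and 83.6% for Rpl36a were also found in another gene's transcript. How this bears on the calls of Rpl36al and Rpl36a was not tested. Rpl22l1 (-0.39) and its partner Rpl22 (-0.38) were not called, nor were Rpl7l1 (-0.33) and Rpl7 (-0.39). Rpl39 was called at -0.85 (edgeR adjusted p = 0.0281), while its paralog Rpl39l stood at or under 1.1 TPM in every tumor. Rpl3 (-0.58) was not called, and Rpl3l, known from muscle, stood at or under 1.25 TPM in every tumor.

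Rps4l varied by 183-fold between tumors, from 0.85 to 156 TPM, without following the groups. It was at 36.3, 69.2, 9.37, 5.89 and 3.41 TPM in the intra-CNS tumors, and at 152, 2.24, 156, 26.5 and 119.7 TPM in the extracranial tumors. The intracranial extra-CNS tumors held 0.85 to 46.8 TPM. Its partner Rps4x, the X-linked gene of the same protein, ranged from 616 to 4774 TPM with 43990A highest. Rps4l lies at chr6:148354656-148355598 (mm10), and its log2 fold change was -1.58 ± 1.08 (SE, edgeR adjusted p = 0.265). Its r with the other members over the 16 tumors was -0.20.

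Related gene lists were read beside the members and beside all genes, of which 17.0% were called lower and 16.1% higher. Among 23 translation factors and other TOP mRNAs, 12 were called lower in intra-CNS tumors and 0 higher, with a median of -0.61. Tpt1 (-1.78), Pabpc1 (-1.47), which binds the poly(A) tail, and the elongation factor subunit gene Eef1b2 (-0.97) were among them. Of 16 nucleolar ribosome assembly factors 3 were called lower (Gnl3 at -0.79, Pes1 at -0.63 and Bop1 at -0.60), with a median of -0.44. Of the 78 mitochondrial ribosomal protein genes 20 were called lower and 2 higher, with a median of -0.32. Beside these, 17 of the 75 cytoplasmic members were called lower, with a median of -0.66.

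The comparison of intracranial extra-CNS with extracranial tumors asks whether these genes differ by site within the extra-CNS tumors. No member was called in edgeR, and none had an unadjusted p under 0.05, while 0.00470% of 21261 genes (1 gene) was called in edgeR. DESeq2 also called no member, while it called 318 of 19438 genes higher and 187 lower. The median log2 fold change of the members was -0.13, against 0.02 over all genes. It turned to 0.07 without R26P115 and to 0.01 without 43990A. Tumor 43990A is labelled as extracranial, of the nose, whereas the study's mouse list has it as intracranial. Counted as intracranial, it moved the median to 0.15, with 0 calls. The most negative value was that of Rps4l, at -2.19 ± 1.01 (SE, edgeR adjusted p = 0.410), and the most positive that of Rps27l, at 0.26 ± 0.23 (SE, edgeR adjusted p = 0.667).

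Members were then set against the level of Myc in each tumor. Myc, the family member that names the extra-CNS subgroup, was at 9.31, 12.4, 13.8, 28.4 and 28.8 TPM in intra-CNS tumors and at 8.73 to 225 TPM (median 122) in extra-CNS tumors. The difference on log2(TPM + 1) was -2.58 (two-sided exact permutation p = 0.00321, adjusted over 3 genes 0.00321). Mycn was at 34.4, 112, 279, 327 and 377 TPM in intra-CNS tumors and at 0 to 2.47 TPM in extra-CNS tumors. Mycl was at 35.5 to 85.9 TPM against 0.323 to 2.12 TPM, and neither gene overlapped between the groups (two-sided exact permutation p = 0.000458 for both, adjusted 0.000687). The intra-CNS tumors thus held high Mycn and Mycl and low Myc, and R26P115 was low in all 3 genes.

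Because Myc differed between intra-CNS and extra-CNS tumors, the slope was fitted within the 11 extra-CNS tumors, per unit of log2(TPM + 1) of Myc. All 75 members had a positive slope, with a median of 0.39 against 0.07 over all genes. In edgeR 20 of the 75 were called with a rising level (26.7%), against 2.19% of the 21260 genes tested, and 0 with a falling level, against 5.39% (7.58% of all genes in either direction). The steepest were Rplp0 (0.60 ± 0.13, SE, edgeR adjusted p = 0.0194), Rpl12 (0.58 ± 0.13, adjusted p = 0.0227), Rps18 (0.55 ± 0.13, adjusted p = 0.0319), Rpl10a (0.52 ± 0.13, adjusted p = 0.0352) and Rps2 (0.52 ± 0.09, adjusted p = 0.00810). Among the least steep of the called were Rpl23a (0.39), Rpl23 (0.39), Rps14 (0.41) and Rpl17 (0.41).

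This slope rested on R26P115. Without it 0 of the 75 were called (edgeR, 0 with an unadjusted p under 0.05, beside 1 gene called among all tested), the median slope was 0.18 against 0.02 over all genes, and 66 members stayed above 0. Leaving out other tumors gave 5 to 31 calls, beside 145 to 734 genes called rising among all tested. Rplp0 stood at 517 TPM in R26P115 and at 1980.5 to 4407 TPM in the other 10 tumors, and its slope without R26P115 was 0.37 ± 0.30 (SE, edgeR adjusted p = 0.819). With R26P115 included, DESeq2 called 64 members (85.3%, against 6.65% of all genes called rising) and limma on log2(TPM + 1) called 61 (81.3%, against 4.08%). With the name scheme as a covariate, edgeR called 5 members (6.67%, against 0.466%).

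**Figure D4:**
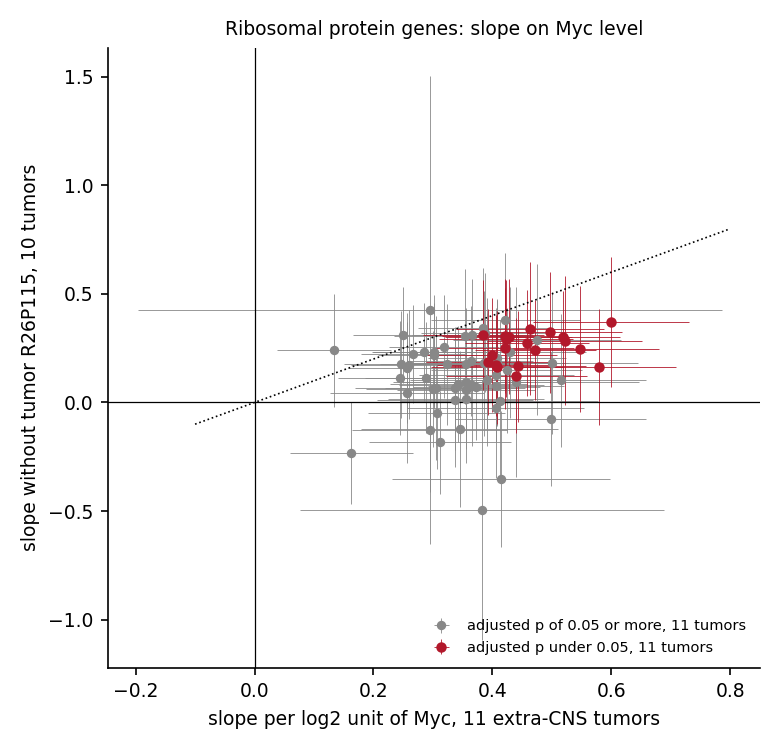
Slope of each of the 75 members per log2 unit of Myc in the 11 extra-CNS tumors (horizontal axis) and in the 10 tumors without R26P115 (vertical axis), with standard errors, calls of the 11-tumor fit in red and a dotted line of equality. All slopes are above 0 on the horizontal axis and 66 on the vertical axis, where the median falls from 0.39 to 0.18 and no gene is called.

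Beyond R26P115 the order of tumors by Myc was not their order by ribosomal protein share. R26P170 had the highest Myc level (225 TPM) and a share of 12.6%, 43990A followed with 203 TPM and 20.1%, and R26P123 with 193 TPM and 10.6%. The lowest Myc levels after R26P115 were 87.0 TPM in 43825B with a share of 11.05% and 94.2 TPM in 43998A with 12.6%. Where all 16 tumors, R26P115 included, were fitted with the 3 groups as a term, the common slope had a median of 0.31 over the members. Over all genes the median was 0.03. In edgeR 0 members were called, and 42 had an unadjusted p under 0.05, beside 4420 of all 21853 genes.

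**Figure D5:**
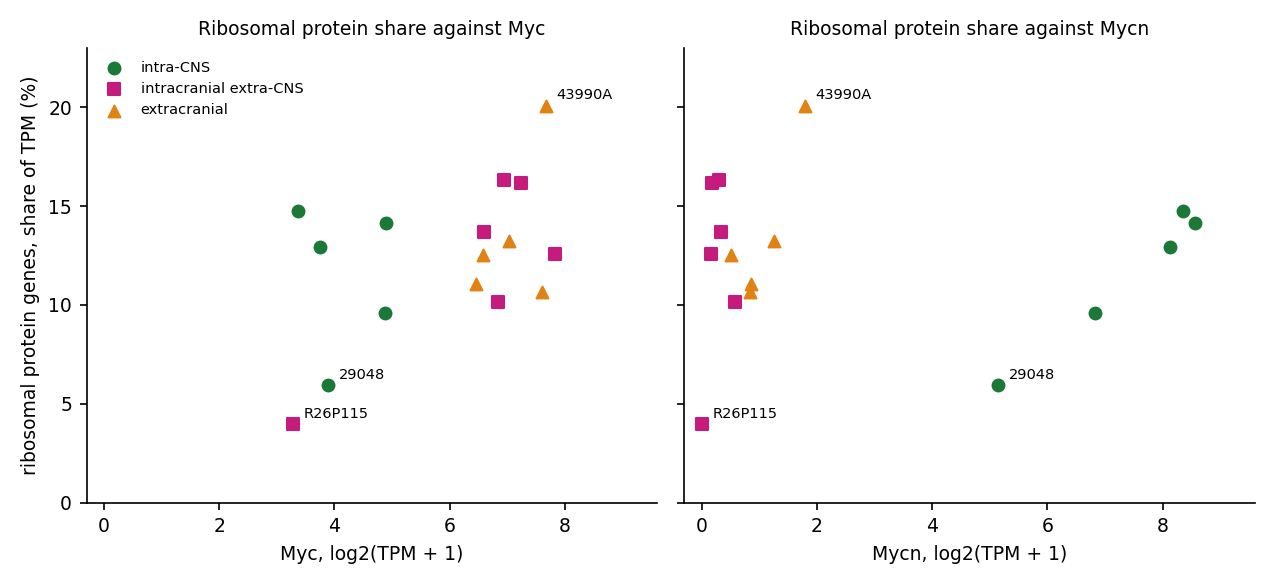
Share of TPM (%) held by the 75 members against log2(TPM + 1) of Myc (left) and of Mycn (right) in the 16 tumors, with symbols by group. Apart from R26P115 the extra-CNS tumors spread from 10.2% to 20.1% at Myc levels of 87.0 to 225 TPM, and among intra-CNS tumors the 2 with the lowest Mycn have the lowest shares.

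Among the 5 intra-CNS tumors the share followed Mycn more than Myc, a comparison chosen after the values were seen and on too few tumors for a correlation. Shares of 5.95%, 9.59%, 12.9%, 14.1% and 14.7% went with Mycn at 34.4, 112, 279, 377 and 327 TPM and with Myc at 13.8, 28.4, 12.4, 28.8 and 9.31 TPM. The same tumors had sums of the 10 proliferation genes of 297, 766, 1008, 1220 and 844 TPM and Smarcb1 at 58.1, 3.99, 4.48, 7.08 and 9.91 TPM. The part of proliferation, of Mycn and of unrecombined cells in the share was not tested.

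Other genes of ribosome production also had slopes on the Myc level in the 11 tumors, R26P115 included. Rpsa (0.63), Rack1 (0.52), Pabpc1 (0.48), Eef1b2 (0.45) and Eif3f (0.39) were called, the last 4 among 23 translation factors and other TOP mRNAs with a median slope of 0.26. Of 16 nucleolar factors 5 were called (Nop58, Polr1b, Rrp9, Nop56 and Gnl3, at 0.37 to 0.40) with a median of 0.29. Of the 78 mitochondrial ribosomal protein genes 0 were called rising and 1 falling (Mrpl58, at -0.47), with a median of 0.00. Of 10 proliferation genes 3 were called rising, with a median slope of 0.72, and their part in the members' slopes was not tested.

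Of the 17 members called lower in intra-CNS tumors and the 20 called on the Myc slope, only Rpl12 was in both lists (5.88% of the first and 5% of the second), and both comparisons use the 11 extra-CNS tumors. Its level was 882, 1470.2, 2126, 2318 and 2382 TPM in intra-CNS tumors and 2261 to 3996 TPM in extra-CNS tumors other than R26P115 (498 TPM). Rps27l had a slope of 0.16 ± 0.10 (SE, edgeR adjusted p = 0.406), the second lowest of the 75 after Rpl41 (0.13).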

How the data were processed

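RNA-seq was made from 16 frozen tumors with a poly(A) stranded protocol and read as 100-base pairs. Per the labels and methods, the authors mapped reads with STAR 2.5.3a (the submitters' processing notes also name FastQC, Picard and Trim Galore) and deposited raw counts per gene. TPM values were deposited by the authors in a second table. The gene annotation and lengths behind both are not given in the sources used here.

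Counts were tested with edgeR 4.0.16 (quasi-likelihood, TMM) over all genes with a count, with Benjamini-Hochberg adjustment at 0.05. SE was taken as the absolute log2 fold change over the square root of F. The first contrast was intra-CNS against extra-CNS tumors (all 16, with the extra-CNS tumors pooled). The others were intracranial extra-CNS against extracranial tumors and a slope on Myc log2(TPM + 1) within the 11 extra-CNS tumors. The first contrast was also fitted with the members' summed count as library size. Single genes were tested by exact permutation over tumors (scipy 1.17.1). Alternatives used DESeq2 1.42.0, limma 3.58.1 on log2(TPM + 1) or log2(TPM + 0.1), other scaling and filters, covariates, and each tumor left out. Scripts were tested on simulated data.

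Members, lists and named genes were chosen with earlier results of these data known. Named were the 5 highest and 5 lowest called members per comparison, paralogs with their partners, the stalk, Rpl5, Rpl11, Rps19, Rpsa, Fau and the Myc family; other genes named were chosen after their values were seen, and a few genes that the rule names are not reported here. Total counts were 17889968 to 110177889 per tumor. Intervals (95%, exact Clopper-Pearson) cover counting error only, as reads carried no molecular identifiers. Each tumor is 1 mouse. Gene positions are from GENCODE release 21 (mm10), and sequences are from RefSeq (GRCm38.p6).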

Additional observations from a re-analysis of the deposited data

Results flagged for a closer look

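In 27 of 117 sets of tumors tested (39 measures in 3 groups), 1 tumor stood farther from its group than Dixon's 95% limit, which chance passes in about 1 set in 20. The measures are not independent, since the members vary together and 22 of the 27 fall on R26P115, an intracranial extra-CNS tumor. In R26P115 the members' share of TPM was 1.99 as log2 percent and Myc was 3.28 on log2(TPM + 1), both the lowest of the 6 tumors.

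On the same log2(TPM + 1) scale, R26P115 was far below the other 5 tumors of its group for large subunit genes, with Rpl3 at 9.42, Rpl7 at 10.11, Rpl10 at 9.77, Rpl10a at 7.89, Rpl11 at 8.36, Rpl12 at 8.96, Rpl17 at 9.16, Rpl19 at 9.41, Rpl22 at 6.76, Rpl23 at 9.04, Rpl39 at 8.63, Rplp0 at 9.02 and Rplp2 at 9.25. It was likewise low for small subunit genes, with Rps2 at 8.99, Rps4x at 9.27, Rps14 at 9.605, Rps18 at 9.41, Rps19 at 8.17, Rps27l at 7.58 and Rpsa at 8.20.

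Among extracranial tumors, 43990A was far above the other 4 for Rpl7 (12.01), Rpl7l1 (7.14) and Rplp2 (11.64). Among intra-CNS tumors, 29048 was far below the other 4 for Rps27l (6.68) and Mycl (5.19).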

How the results depend on the processing

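No paired analysis was possible because each tumor came from its own mouse and replicate numbers only follow the order of the samples. Between intra-CNS and extra-CNS tumors, 17 members were called. The count was 5 with a log2 fold change beyond 1 as well, where 13.1% of all genes were called lower. It was 29 with DESeq2, where 4442 of 21414 genes were called lower. It was 1 with limma on log2(TPM + 1) and 1 on log2(TPM + 0.1), where 1682 and 1864 of 21841 genes were called lower. It was 9 with the name scheme as a covariate, 1 in tumors induced at E6, 2 in intracranial tumors and 33 without 29048 and R26P115. The shares of all genes for these last settings are given above. Leaving out 1 tumor gave 2 (29048) to 50 (R26P115) calls, with 3 without 38594A and 10 without 43990A or 43992A. Of all genes, 3797 of 21782 were called lower without 43990A and 3694 of 21821 without 43992A.

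On the Myc slope 20 members were called. The count was 0 with a slope over 1 as well, 64 with DESeq2, 61 and 57 with limma on log2(TPM + 1) and log2(TPM + 0.1), 5 with the name scheme and 0 in 16 tumors with the groups as a term. Of all genes, 676 of 21247 were called rising with limma on log2(TPM + 0.1) and 112 of 21853 in the 16 tumors. Leaving out 1 tumor gave 0 (R26P115) to 31 (R26P170) calls, with 29 without R26P123 and 5 to 11 without each of the other 8 (43825B, 43987A, 43989C, 43990A, 43992A, 43998A, 29941C and 29225D). Of all genes, 734 of 21200 were called rising without R26P170 and 263 of 21021 without R26P123. Without each of the other 8 it was 145 (43989C) to 539 (43990A) genes. Relative to the member total, 1 member was called, and leaving out 1 tumor gave 1 to 4 calls, with 4 without R26P115 and 4 without 29048 and R26P115. Without R26P115, 8555 of all 21795 genes were called higher and 1712 lower. Without both tumors it was 6169 higher and 1859 lower of 21700. The cause of these changes was not tested.

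Between intracranial extra-CNS and extracranial tumors 0 members were called in all alternatives run. Among these, DESeq2 called 318 of 19438 genes higher and 187 lower. The log2 ratio of the mean share of counts was -0.36, and -0.48 to -0.18 with 1 tumor left out. The difference of Myc was -2.92 to -2.38, of Mycn 6.49 to 7.35 and of Mycl 4.88 to 5.19, with exact permutation p of at most 0.00879. Of 2096 alternative values of single members 0 reversed a called direction, 182 lost and 57 gained a call. Fits without 29048 and R26P115 were added after the data were seen, as was the name scheme for the relative fit.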
